A study of Mus musculus with 20 samples.

Results

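Ribosomal protein genes were examined for peaks of 5-formylcytosine (5fC) in the mid-gestation mouse embryo. The genes are those annotated as protein-coding in NCBIM37 (mm9) whose symbol is Rpl or Rps followed by a number, with an optional a, x, y or l, and 76 of the 22367 protein-coding genes met this rule. They comprise 45 genes of the large subunit and 31 of the small subunit, with pseudogenes and the Rps6k kinases left out, and 72 lie on autosomes and 4 on the X chromosome. Each gene was taken with 2 kb on both sides, and the resulting window had a median length of 7237 bp (4849 to 46639 bp), against 19427 bp for all protein-coding genes. Of the 76 windows, 37 touched another protein-coding gene and 20 touched no other annotated gene, so a peak in a window need not lie in the ribosomal protein gene itself.

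The study captured 5fC from genomic DNA of E11.5 embryos with an aldehyde-reactive, cleavable biotin probe and sequenced the captured fragments. The embryos were either WT or *Tdg* null. In the null allele a neomycin cassette stands in place of the catalytic part of the gene. All embryos came from intercrosses of heterozygotes, 12 embryos of 6 litters in all, and each litter gave 1 embryo of each genotype. Hindbrain was taken from litters A, O, Q and Z, while heart, liver and carcass (the rest of the body) came from the same embryos of the litters labelled pair_a and pair_b, so that values of these tissues share their embryos. Hindbrain thus had 4 null and 4 WT libraries, and heart, liver and carcass had 2 of either genotype. The null liver of pair_b held 228 peaks in total and none in the 76 windows, and was kept apart from the other 19 libraries. The files hold peak positions, with no level of any gene product, so the genotypes rest on the labels.

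Ribosomal proteins are the structural proteins of the large and the small subunit of the cytoplasmic ribosome, and their genes are transcribed strongly in every growing cell, from short promoters that lie mostly in CpG islands. 5fC is made from 5-methylcytosine by successive TET oxidation and is removed by the glycosylase TDG followed by base excision repair, so it accumulates where oxidation takes place in cells that lack TDG. CpG islands at active promoters carry little 5-methylcytosine, the substrate of this pathway.

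Sequences of the places that the most null libraries shared are shown first. Under the 19 libraries, 158 distinct stretches of the windows were covered by peaks. Of these, 67 were covered in 1 library, 33 in at least 5 of the 9 null libraries and 4 in all 9. The following lines give up to 300 bases from the most shared part of these 4 stretches, *Rpl10a*, *Rps28*, *Rps15* and *Rps10*, and of *Rpl38*, one of those covered in 8 null libraries and no WT library. Bases were read from the NCBIM37 genome, 5′ to 3′ on the strand of the ribosomal protein gene, and capitals mark CpG, the context in which mammalian cytosines are mostly methylated.
*Rpl10a* (chr17:28470050-28470349, plus strand): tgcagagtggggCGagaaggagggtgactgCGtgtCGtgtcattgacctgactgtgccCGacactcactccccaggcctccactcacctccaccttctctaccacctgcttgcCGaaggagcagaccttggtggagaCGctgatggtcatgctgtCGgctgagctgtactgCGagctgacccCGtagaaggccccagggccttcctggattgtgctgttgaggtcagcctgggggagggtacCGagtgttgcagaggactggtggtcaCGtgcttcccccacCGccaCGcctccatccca
*Rps28* (chr17:33955000-33955299, minus strand): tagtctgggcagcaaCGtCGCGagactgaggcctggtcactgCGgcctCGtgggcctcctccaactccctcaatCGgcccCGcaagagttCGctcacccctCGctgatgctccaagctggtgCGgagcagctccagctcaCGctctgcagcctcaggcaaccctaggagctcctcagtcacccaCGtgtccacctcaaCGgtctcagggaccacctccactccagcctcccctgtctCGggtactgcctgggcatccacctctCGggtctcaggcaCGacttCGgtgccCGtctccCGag
*Rps15* (chr10:79756350-79756649, plus strand): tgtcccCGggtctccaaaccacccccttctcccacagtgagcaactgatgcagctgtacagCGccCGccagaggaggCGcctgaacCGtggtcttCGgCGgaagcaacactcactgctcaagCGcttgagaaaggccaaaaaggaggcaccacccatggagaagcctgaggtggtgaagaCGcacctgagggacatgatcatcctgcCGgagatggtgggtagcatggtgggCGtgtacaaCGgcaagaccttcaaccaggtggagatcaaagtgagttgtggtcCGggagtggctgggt
*Rps10* (chr17:27773210-27773509, minus strand): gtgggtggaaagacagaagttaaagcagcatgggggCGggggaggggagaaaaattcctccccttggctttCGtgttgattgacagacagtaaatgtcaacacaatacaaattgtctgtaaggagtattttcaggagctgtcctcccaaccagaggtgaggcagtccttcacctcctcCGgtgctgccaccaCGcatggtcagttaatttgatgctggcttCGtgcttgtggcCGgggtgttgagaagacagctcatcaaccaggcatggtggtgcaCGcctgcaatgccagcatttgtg
*Rpl38* (chr11:114531100-114531399, plus strand): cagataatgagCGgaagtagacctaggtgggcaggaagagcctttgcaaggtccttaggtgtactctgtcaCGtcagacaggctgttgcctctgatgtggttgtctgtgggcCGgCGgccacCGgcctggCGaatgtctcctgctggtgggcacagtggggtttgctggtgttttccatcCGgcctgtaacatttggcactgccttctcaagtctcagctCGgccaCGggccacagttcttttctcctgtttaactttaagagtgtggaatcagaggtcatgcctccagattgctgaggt

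These 5 places differed in what the annotation holds there. The *Rpl10a* stretch lies downstream of its gene, inside *Tead3*, a transcription factor of the TEA domain family, and was covered in 12 libraries. The *Rps28* stretch also lies downstream, inside the neighbouring *Kank3*, and was covered in 11 libraries. The *Rps15* stretch holds an exon of *Rps15* itself, with its middle 1302 bp from the start of the main transcript, and was covered in 10 libraries. In *Rps10* the middle of the stretch lay 1229 bp before the start of the main transcript, within the span of a longer annotated transcript. Another annotated gene that is not protein-coding, *Gm15420*, also spans that point. The *Rpl38* stretch lies in an intron, 1412 bp from the start. The 300 bases printed hold 13, 19, 13, 7 and 9 CpGs in the order of the lines.

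Start regions held few peaks, and 2 promoters are printed, one of the few that touched a peak and one that did not. The 250 bases before the start of *Rps10* touched a peak in 4 libraries, and those of *Rps7*, one of the 7 genes without any peak, in none. Both are rich in CpG, with 21 and 18 in 250 bases.
*Rps10* promoter (chr17:27772222-27772471, minus strand): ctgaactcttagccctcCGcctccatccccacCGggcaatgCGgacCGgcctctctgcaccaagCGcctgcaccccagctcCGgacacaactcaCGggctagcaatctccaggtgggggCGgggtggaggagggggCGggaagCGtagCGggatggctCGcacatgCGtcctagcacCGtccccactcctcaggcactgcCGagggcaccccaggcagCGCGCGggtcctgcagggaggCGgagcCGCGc
*Rps7* promoter (chr12:29320819-29321068, minus strand): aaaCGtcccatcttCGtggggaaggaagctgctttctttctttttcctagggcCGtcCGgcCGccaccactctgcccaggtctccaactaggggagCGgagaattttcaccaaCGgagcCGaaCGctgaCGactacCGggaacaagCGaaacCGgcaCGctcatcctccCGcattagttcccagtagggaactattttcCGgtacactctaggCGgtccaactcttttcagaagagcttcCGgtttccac

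Peaks were found in the windows of 69 of the 76 genes in at least 1 of the 19 libraries. In the null libraries 67 genes had a peak, in the WT libraries 15, and 2 genes had a peak in WT alone. The 7 genes without a peak anywhere were *Rpl9*, *Rpl27* and *Rpl30* of the large subunit, *Rps7* of the small subunit, *Rps27a*, which encodes a fusion with ubiquitin, and the paralogs *Rpl10l* and *Rps27l*. They make up 9.21% of the members, against 17.5% of all protein-coding genes and 28.5% of the 1889 genes whose window length lies in the middle band of the members' own (6526 to 8761 bp, from the lower to the upper quartile). At the other end, 7 genes had a peak in all 9 null libraries: *Rpl10a*, *Rpl13a*, *Rpl24*, *Rpl27a*, *Rps10*, *Rps15* and *Rps28*. This was 9.21% of the members, 35.4% of all genes and 9.48% of the length band. A further 11 genes had a peak in 1 library only, and in 7 of these it was the null heart of pair_a, the library with the most peaks (254319).

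**Figure D1:**
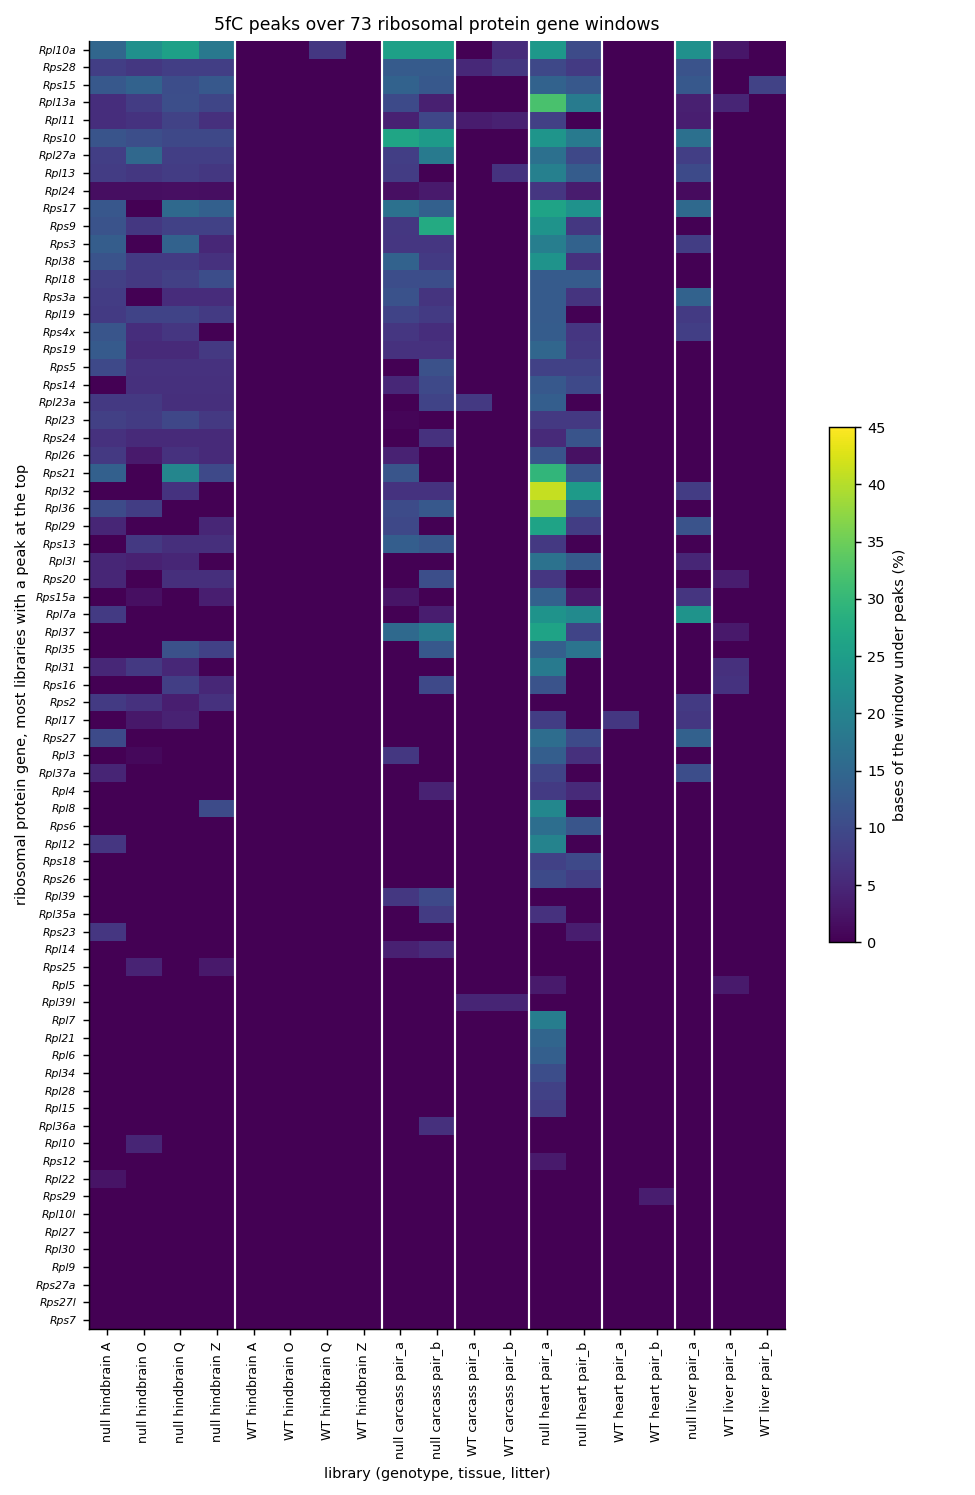
Percent of the bases of each of 73 of the 76 gene windows that lie under 5fC peaks (colour), with genes in rows and the 19 libraries in columns, grouped by tissue and genotype with white lines between groups. The null columns hold nearly all the colour, the null heart of pair_a has colour over the most genes, and the 7 genes at the bottom have none in any library.

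Peak numbers set the frame for every comparison of genotypes. The null libraries held 101344 to 254319 peaks and the WT libraries 1563 to 42012, and the files used here do not give the number of reads behind them. In the 4 null hindbrains 38, 33, 36 and 35 members had a peak (litters A, O, Q and Z), and in the 4 WT hindbrains 0, 0, 1 and 0. All protein-coding genes were separated too, with a peak in 58.04% to 64.15% of them in null and 2.79% to 21.0% in WT hindbrain. In the length band it was 36.2% to 43.8% and 0.265% to 5.03%. The share of a library's peaks that fell in the windows was 0.0301% to 0.0355% in null hindbrain. With 0 of 1563 peaks, a count of 0 in the WT hindbrains of litters A and Z allows a share of up to 0.192% (3 peaks of the total) or 0.236% (upper bound of the 95% exact Clopper-Pearson interval), so a share as high as that of the null libraries could not be detected there. In WT hindbrain Q, the WT hindbrain with the most peaks (21606), the share was 0.00463% (95% exact Clopper-Pearson interval 0.000117% to 0.0258%), below that of the null hindbrains. In WT hindbrain O, 0 of 8989 peaks allows up to 0.0334% or 0.0410% by the same 2 bounds, which does not lie below the range of the null hindbrains. These limits cover counting error only.

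The share of the members' bases under peaks was higher in the null libraries of every tissue. In null hindbrain it was 4.24%, 3.14%, 4.17% and 3.45% (mean 3.75% ± 0.540 SD, n = 4), against 0%, 0%, 0.0739% and 0% in WT. In null carcass it was 3.92% and 4.87%, with 0.372% and 0.484% in WT, and in null heart 11.7% and 5.51%, with 0.0774% and 0.0310% in WT. In liver the null library had 3.27% and the WT libraries 0.415% and 0.0774%. The groups did not overlap in any tissue. The same held for all protein-coding windows, which were covered to a mean of 0.214% in WT and 4.39% in null hindbrain. Genes of the small subunit had more cover than those of the large subunit in each null tissue, for example 4.70% against 3.34% in hindbrain and 9.69% against 8.04% in heart, a difference without a test. The share of genes with any peak (91.1% of the large and 90.3% of the small subunit) was nearly equal.

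Set against all protein-coding windows of the same library, the members carried less cover in carcass and about as much in heart. The ratio of the members' cover to that of all windows was 0.906, 0.893, 0.904 and 0.730 in the null hindbrains, 0.970 and 0.946 in the null hearts and 0.756 in the null liver. In the null carcasses it was 0.550 and 0.494, below each of the other null libraries. The part that window length plays was described by the length band, against which the ratio averaged 0.873 in null hindbrain, 1.01 in null heart and 0.688 in null carcass. Against the ungapped genome the members held more than their share in heart (1.48) and hindbrain (1.12) and less in carcass (0.686), so whether they count as rich or poor in hindbrain depends on the reference.

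**Figure D2:**
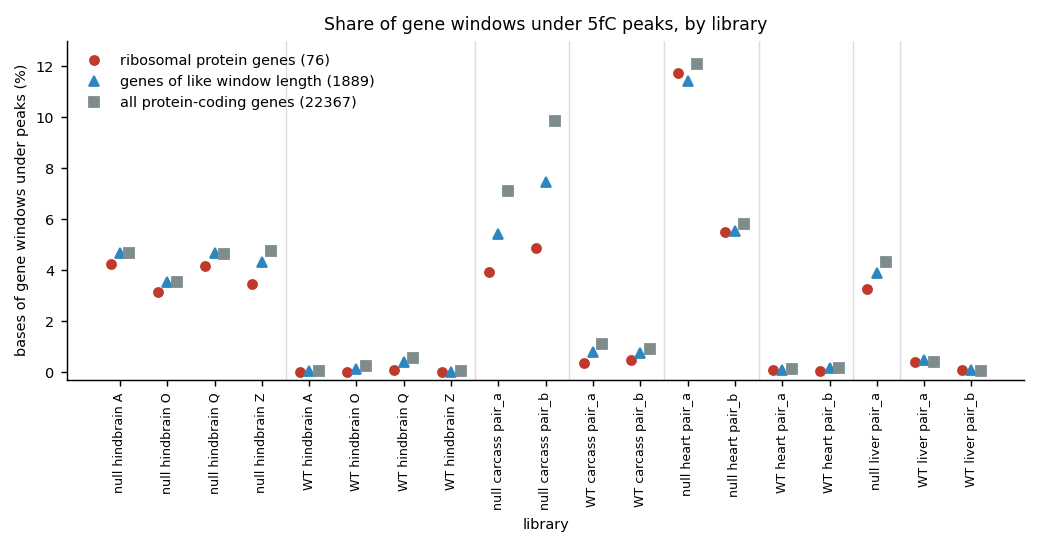
Bases under peaks in percent, for each of 19 libraries, over the windows of the 76 ribosomal protein genes (circles), of 1889 protein-coding genes in the middle of the members' range of window lengths (triangles) and of all 22367 protein-coding genes (squares). In the null carcasses the circles, at 3.92% and 4.87%, lie below both other marks, and in the null hearts the marks lie close together.

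The hindbrain libraries allowed a test for each gene. Of the 76 genes, 49 had a hindbrain peak and could be tested, and in 22 of them the lowest null library lay above the highest WT one (exact permutation test of 4 against 4, two-sided, p = 0.0286, the smallest this design allows, adjusted p = 0.0427 by Benjamini-Hochberg over 16332 windows). None lay below. These 22 are 28.9% of the members and 44.9% of those tested. Over all genes the same call was made for 66.9% of tested windows and 48.8% of all windows, and over the length band for 24.4%. The members' share is below that of genes in general and close to that of genes of their length. This order depends on the setting: with 10 kb on both sides it was 67.1% of members and 63.3% of all genes. With cover taken relative to each library's own cover of all windows, 27.6% of members and 31.6% of all genes had null above WT, and none passed the exact permutation test after adjustment (smallest adjusted p 0.0644). With 1 WT hindbrain library left out, whichever it was, the same 22 genes had null above WT, but the smallest adjusted p of the exact permutation test was 0.0525 to 0.0544 and no gene passed. With 1 null library left out instead, 22 to 27 members passed (smallest adjusted p 0.04 to 0.0417). With litter A, O, Q or Z left out in both genotypes, the smallest adjusted p of this test was 0.137 to 0.14. So few libraries allow no p below 0.05, so no gene could pass. With the 4 litters as blocks (exact sign flips), the smallest possible p was 0.125, so none of the 22 genes could pass.

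Across the tissues, 20 members were higher in the null embryo in all 6 litters (two-sided exact sign flips, p = 0.0312, the smallest possible). This sign held in 29.0% of the 69 members with a peak in any library and in 58.6% of the 18446 such windows of all genes. Over all members and all genes, with or without a peak, it was 26.3% and 48.4%. After adjustment the smallest p was 0.0533, so no gene passed. *Rps2*, which separates the hindbrain groups, was higher in 5 of 6 litters.

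**Figure D3:**
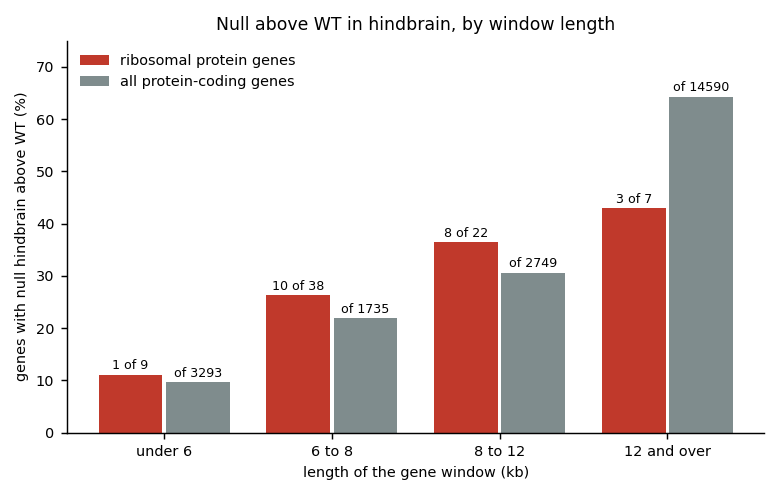
Percent of genes in which every null hindbrain library lies above every WT one (vertical axis), in 4 classes of window length (kb), for the 76 ribosomal protein genes and for all protein-coding genes, with the number of genes over each bar. Both sets rise with length up to 12 kb, the members from 11.1% to 36.4%. The last class holds 7 members.

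The highest covers in null hindbrain belonged to a mixed group of both subunits. *Rpl10a*, a protein of the stalk of the large subunit that flanks the site where tRNAs leave, had 14.9%, 22.5%, 25.6% and 17.9% of its window under peaks in the null hindbrains and 0%, 0%, 7.27% and 0% in WT, the only member with any WT hindbrain peak. All of its cover comes from the flanks, since the gene body alone held none in hindbrain. *Rps15*, a protein of the head of the small subunit, had 12.3%, 14.1%, 10.6% and 12.3% and no WT hindbrain peak.

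A further 6 genes lay closer together. *Rps10*, which sits in the head of the small subunit, had 11.8%, 10.8%, 9.80% and 9.80%, and *Rpl27a*, a protein of the large subunit, had 8.31%, 15.2%, 8.31% and 8.31%. *Rps9* had 11.6%, 7.24%, 8.68% and 8.68%. These 3 have their most shared peak in or just upstream of their own gene. *Rpl18* had 8.53%, 7.46%, 8.53% and 10.7%, from a stretch in *Fam83e* downstream. *Rpl13a* had 5.88%, 8.08%, 10.8% and 9.42%, and *Rpl23* 8.53%, 7.86%, 9.65% and 7.41%, the latter from the downstream flank. None of these 6 had a hindbrain peak in WT. The other genes called and reported here had means from 1.77% in *Rpl24*, whose annotated span is the longest of all members, to 8.35% in *Rpl19*.

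Windows with and without a neighbouring gene are given apart, without a test. Of the 37 members whose window touches another protein-coding gene, 14 (37.8%) had null above WT in hindbrain, and of the 39 others 8 (20.5%), with median windows of 7080 and 7568 bp. All protein-coding genes split the same way gave 52.3% and 46.8%, and those of the length band 30.3% and 19.9%, so the order is not particular to the members. When the gene body alone was counted, 9 of these 22 genes were still called and no other member was, or 9 of 76, while 43.1% of all protein-coding genes were called. *Rpl10a*, *Rpl18* and *Rpl23* then had no hindbrain cover at all.

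The cover was unevenly placed around the start of the gene. Over the first 500 bp of the members' main transcripts no base lay under a peak in any of the 9 null libraries. In WT, peaks touched it in single libraries, with a mean of 0.805% in liver (0% and 1.61%) and 0.167% in heart (0% and 0.334%), against 0.259% and 0.168% of all genes. In the null libraries the same zone of all genes was covered to 4.14% in null hindbrain, 6.52% in null heart, 5.88% in null carcass and 3.21% in null liver. The types of start also differ, and their part in this gap was not tested. Of the members, 89.5% have a start with the base composition of a CpG island (GC content of at least 50% and an observed over expected CpG ratio above 0.6 in the 1000 bases around it), against 45.1% of all genes, and over the 10082 genes with such starts the first 500 bp were covered to 1.42% in null hindbrain and 1.89% in null heart. The members' zone measures 38 kb in all, so a few peaks would have moved it.

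Upstream of the start the members had more cover in hindbrain. From 1000 to 750 bp upstream, a bin singled out after its value was seen, they were covered to 9.14% on average in null hindbrain (6.50% to 12.1% over the 4 libraries), against 4.55% in all genes and 5.90% in genes with island-like starts. The cover fell to 1.27% in the last 250 bp before the start. In null carcass the same upstream bin held 9.49%, against 7.78% in all genes and 9.71% in genes with island-like starts. In null heart it held 8.56%, against 8.69% and 10.7%, and in the null liver 5.88%, against 4.30% and 5.335%. Cover above that of all genes in this bin was thus not particular to hindbrain. For *Rps3a*, a peak in 5 null libraries had its middle 326 bp before the start, the only stretch shared by at least 5 null libraries within 500 bp of one. The hindbrain difference over the whole upstream kilobase, 6.13% against 4.29%, reversed among the 20 members whose window touches no other annotated gene. These held 0.625% and were set against all genes, with or without neighbours. From 1 to 2 kb past the transcript end, the members held 5.864% in null hindbrain, against 3.421% in all genes. The 20 held 0.56% there. That zone was also above all genes in null heart (12.83% against 7.611%), carcass (7.834% against 5.757%) and liver (3.758% against 3.171%). The first kilobase past the end held less in null hindbrain, 1.142% against 3.357%.

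**Figure D4:**
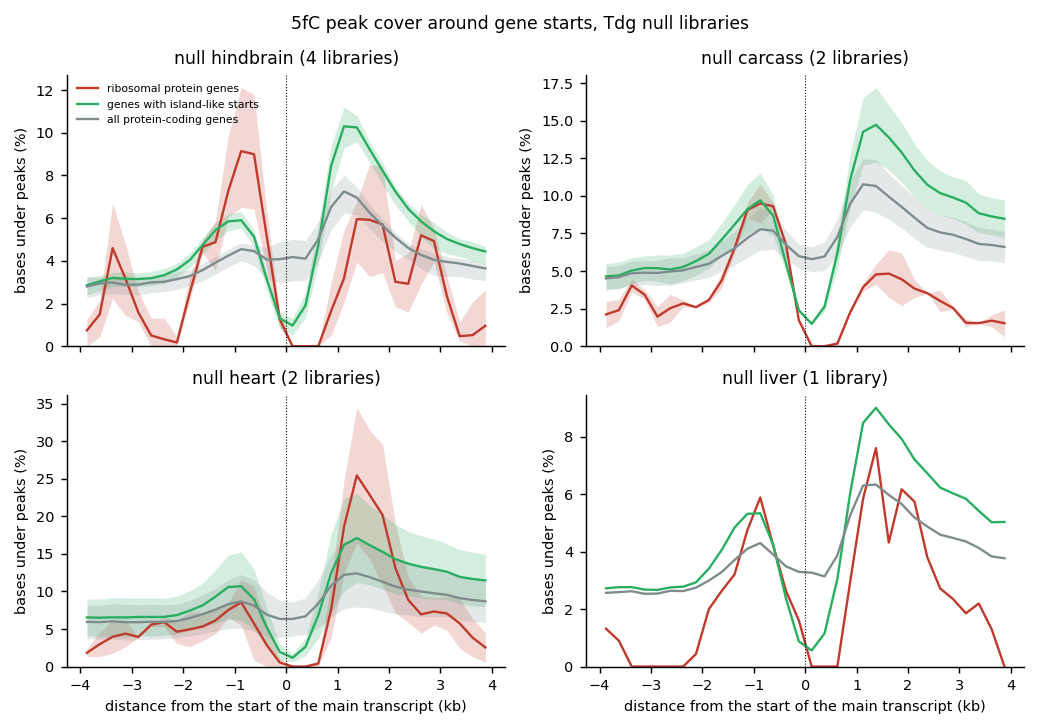
Percent of bases under 5fC peaks in bins of 250 bp by distance from the start of the main transcript (kb), for the ribosomal protein genes, genes with island-like starts and all protein-coding genes in the null libraries of 4 tissues. Lines are means over libraries and bands run from the lowest to the highest library, and the vertical scales differ between panels. The red line lies at 0 from 0 to 500 bp in every panel and reaches 25.5% downstream of the start in heart.

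Inside the genes, cover was highest in heart. From 1000 to 1750 bp downstream of the start, the null hearts covered 30.2% (pair_a) and 14.4% (pair_b) of the members' bases, against 16.5% and 7.82% over all genes and 22.3% and 10.7% over genes with island-like starts. In the null hindbrains the members' cover there was 6.91%, 4.49%, 5.50% and 3.18%, below all genes in each library (7.37%, 5.97%, 7.09% and 6.86%). In the null carcasses it was 3.86% and 5.17%, against 8.81% and 12.1%. Thus in this stretch the members exceeded all genes in both null hearts, and fell below them in the other 7 null libraries. Of the 76 members, 36 (47.4%) and 18 (23.7%) had a peak there in the null hearts, against 27.7% and 14.3% of all genes, and 4 to 11 had one in the other null libraries. By this count the null hindbrain of litter A was also above all genes, with 14.5% against 13.4%. This stretch was chosen after the profile around the start was seen, and in short genes such as *Rpl36* it runs past the gene. Over main transcripts beyond the first 500 bp the excess in heart was smaller. In null heart the members' exons there held 11.97% on average, against 10.97% in all genes and 11.88% in genes with island-like starts. Their introns held 11.11%, against 9.187% and 11.14%. Heart and hindbrain came from different litters, so tissue and litter cannot be told apart here, and 2 against 4 libraries allow no p below 0.05.

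*Rpl32* and *Rpl7a* were among the genes with the most excess in heart. *Rpl32*, a protein of the large subunit, had 41.1% and 24.6% of its window under peaks in the null hearts, 6.60% in both null carcasses, 7.98% in the null liver and 0%, 0%, 6.60% and 0% in the null hindbrains. *Rpl7a* had 23.1% and 21.6% in heart, 23.1% in liver, 0% and 3.63% in carcass and 7.63%, 0%, 0% and 0% in hindbrain. Neither gene had a peak in any WT library. Peaks of *Rpl32* lie partly within the gene, while those of *Rpl7a* lie in the flanks, in *Med22*, a Mediator subunit, and *Surf1*, which serves cytochrome c oxidase assembly.

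The opposite order was rarer. *Rps2*, a protein near the mRNA entry of the small subunit, was covered in all 4 null hindbrains and in neither null heart, with 7.68%, 6.40%, 3.84% and 6.40% for *Rps2*. *Rpl10a* had a higher mean in hindbrain (20.2% ± 4.74 SD, n = 4) than in heart (24.0% and 10.3%), but its groups overlapped. In all, 20 members (26.3%) had both null hearts above all 4 null hindbrains and 2 (2.63%) below, against 32.4% and 4.0% of all genes and 20.2% and 4.13% of the length band. The members' shares therefore lie near the background. With the null heart of pair_b alone, without that of pair_a, 21 members (27.6%) lay above and 7 (9.21%) below, against 33.3% and 16.6% of all genes. *Rpl3l*, the paralog of *Rpl3* used in striated muscle, was one of the 20.

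Carcass was compared with hindbrain in the same way. *Rpl37* had 15.3% and 18.4% in the null carcasses, 26.0% and 9.19% in the null hearts and no peak in any hindbrain. *Rps10* had 26.5% and 24.5% in carcass, and 23.5% and 18.6% in heart, all above its 4 hindbrain values. Among the lowest relative to hindbrain was *Rpl23*, with 0.673% and 0% in carcass. With 2 carcass libraries these are values without a test.

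WT peaks were few and fell partly on the same places. *Rpl10a* had a peak in 3 WT libraries, with 7.27% in hindbrain Q, 5.75% in carcass pair_b and 2.70% in liver pair_a, all in *Tead3*. *Rps28* had 5.24% and 7.34% in the WT carcasses, against 12.9% in both null carcasses, and *Rpl11*, whose product also binds the p53 regulator Mdm2, had 3.43% and 4.12%, against 4.12% and 9.60%. *Rps15* had 8.80% in WT liver pair_b. *Rpl23a* had 7.52% in WT carcass pair_a.

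Some WT peaks had no null counterpart. *Rpl39l*, a paralog of *Rpl39* expressed mainly in the testis, had 4.61% in both WT carcasses and 0% in all 9 null libraries, from peaks upstream of the gene that overlap over 300 bp. *Rps29* had a peak in WT heart pair_b alone. *Rps16* had 6.62% in WT liver pair_a, at a place with no null peak. Of the 4 stretches with their middle within 500 bp of a start, 3 were covered in 1 WT library and no null library, those of *Rpl5*, *Rps20* and *Rps29*. *Rpl17* had 7.24% in WT heart pair_a and 8.26% in the null heart of the same litter, at different places. Of the 158 stretches, 15 were covered in a WT library and 6 of these in no null library.

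The promoters of the members are described by their sequence, without a test. In the 300 bases from 250 before to 50 after the start, the members held a median of 19.5 CpGs, against 12 in all genes and 25 in genes with island-like starts. Motifs were searched on both strands, and a base could count for more than 1 motif. CCGGAA, the core bound by ETS factors, was present in 44.7% of members, 17.8% of all genes and 29.4% of genes with island-like starts. CTTTCC, a pyrimidine-rich word, was present in 38.2%, 26.2% and 24.3%, in that order, and AANATGG, the core bound by YY1, in 28.9%, 15.8% and 13.8%. GGGCGG, the core bound by Sp1, was present in 51.3% of members, above the 44.9% of all genes and below the 74.0% of island-like starts. Only 6 members had a peak over these 300 bases in any library: *Rpl10a*, *Rps3a*, *Rps10*, *Rpl23a*, *Rpl29* and *Rps20*. In the null libraries 0 to 4 members had one, or up to 5.26%, against 4.37% to 11.9% of all starts and 1.61% to 5.47% of island-like starts.

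Other genes of the translation machinery, other housekeeping genes and pseudogenes gave a frame for these counts. Every null hindbrain lay above every WT one in 17 of 76 mitochondrial ribosomal protein genes (22.4%) and 16 of 46 ribosome biogenesis genes (34.8%). The same order held in 15 of 40 translation factors (37.5%) and 19 of 28 other housekeeping genes (67.9%). Among cytoplasmic ribosomal protein genes outside the symbol rule it held in 1 of 10. Over all protein-coding genes the share was 48.8%, and of these lists only the other housekeeping genes lay above it. In none of these lists did a gene have every null hindbrain below every WT one. Of 151 annotated pseudogenes named after the members, 13 (8.61%) showed the same order, with a median window of 4482 bp. The lists differ in window length, with a median of 10698 bp for the other housekeeping genes and 20235 bp for the translation factors, and were not compared by a test.

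Some genes of these lists were covered more than most members. In null hindbrain, *Actb*, which encodes beta-actin, had a mean of 34.0% ± 8.88 (SD, n = 4) and *Gapdh*, a glycolytic enzyme, 30.8% ± 6.39, both with 0% in WT hindbrain. *Eif6*, which keeps the subunits apart, had 16.5% ± 1.35 and *Ubtf*, a factor of ribosomal RNA transcription, 14.1% ± 2.45. *Mrps33* and *Mrpl2*, of the mitochondrial ribosome, had 14.4% ± 4.25 and, in each of the 4 libraries, 13.8%, and *Rpl36al*, a cytoplasmic ribosomal protein outside the symbol rule, 12.6% ± 3.85. These 7 passed the exact permutation test (adjusted p = 0.0427), as did *Eef1d*, a subunit of an elongation factor, at 8.40% ± 3.41. *Rpsa*, with 6.97%, 5.81%, 8.14% and 0%, did not. *Eef2*, the elongation factor that moves the ribosome along the mRNA, had 10.7%, 9.11%, 15.2% and 13.2% in null and 14.2%, 15.2%, 17.2% and 8.10% in WT hindbrain, and the groups overlapped (exact permutation test, adjusted p = 0.642).

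**Figure D5:**
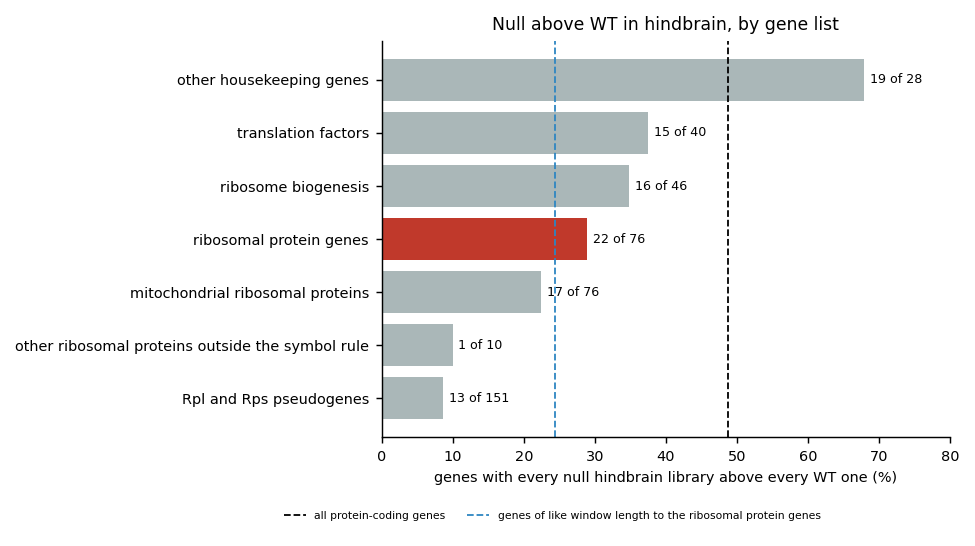
Percent of the genes of each list in which every null hindbrain library lies above every WT one, with the counts beside the bars. The dashed lines mark all protein-coding genes (48.8%) and genes of like window length to the ribosomal protein genes (24.4%), and the ribosomal protein genes (28.9%) lie between them.

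The tissue labels were set against marker genes, as positions of 5fC and not as expression. Windows of 10 heart markers had 16.6% and 27.5% of bases under peaks in the null hearts and 2.02% to 3.07% in the null hindbrains. Windows of 9 hindbrain markers had 1.73% to 2.72% in the null hindbrains, 0.326% and 1.70% in the null hearts and 3.69% and 5.62% in the null carcasses, so they did not single out hindbrain. Windows of 6 hepatocyte markers had 4.15% in the null liver, with means of 5.89% in null carcass, 6.27% in null heart and 2.91% in null hindbrain. Those of 5 erythroid markers had 1.39% in the null liver, below the means of 6.71% in heart, 2.85% in carcass and 2.00% in hindbrain. Only the heart list was thus highest in the tissue of its label. The part of cell composition in the members' heart values was not tested. In pieces of tissue, fewer cells of a type and less 5fC per cell cannot be told apart.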

How the data were processed

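Per the study's methods, reads passed through Trim Galore and Bowtie2 with default options against NCBIM37 (mm9), and MACS in SeqMonk then gave peaks for every pull-down separately (p cutoff 1e-05, fragment size 200 bp). Use of an input library and removal of duplicates are not given in the sources used here. The deposited files of the authors hold start and end positions on a grid of 100 bp, another unit than counts or signal, so depth in reads is unknown from the files used here.

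Peaks on 21 chromosomes were intersected with gene windows of the GENCODE annotation of the same build. Cover is the percent of window bases under peaks, and overlapping member windows were counted once (75 stretches, 645.6 kb). The main transcript is the one numbered 001, otherwise the coding one with most exonic bases. Genotypes were compared per gene by exact permutation tests (hindbrain) and exact sign flips over litters, with Benjamini-Hochberg adjustment over all windows with a peak, in Python 3.11.15, numpy 2.4.6, pandas 2.3.3 and scipy 1.17.1. The code was tested on simulated data. Tissue comparisons, positions and lists are descriptions.

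Litters pair the genotypes by the labels. Deviations of same-litter hindbrain libraries from their group means correlated at -0.0552 to 0.0712, and those of different litters at -0.152 to 0.158. Members named were the 10 with the most cover among those called in hindbrain, the 8 with most WT peaks, the extremes of heart and carcass against hindbrain, those without a peak, and 2 genes per list. The members and lists were chosen with earlier results of these data known. Alternatives covered windows, peak length, merging, midpoints, references, chromosomes, paralogs and left-out libraries. Some members and a sequence are not reported here by name, though all 76 members enter the counts.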

Additional observations from a re-analysis of the deposited data

Results flagged for a closer look

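Within the groups of 4 hindbrain libraries, 64 values were checked for a library that stood far from the other 3 of its group (by Dixon's criterion), and 10 were found. Chance gives about 1 in 20 groups, a rate for values without ties. In most of these 10 the other 3 libraries had equal values, often 0. Such ties put the criterion at its largest possible value, so the rate does not apply to them. Among the null libraries, litter Z had a ratio of member cover to that of all windows of 0.730, with the other 3 at 0.893 to 0.906. *Rpl27a* had 15.2% in litter O and 8.31% in the other 3, and *Rps28* had 7.34% in litter O and 8.39% in the other 3. *Rpl32* had 6.60% in litter Q and *Rpl7a* 7.63% in litter A, each with 0% elsewhere. In WT hindbrain, litter Q alone had any of the members' peaks, and its values all rest on 1 peak in the *Rpl10a* window. Litter Q had 1 member with a peak, 0.0739% of member bases, a ratio of 0.132, 0.00463% of its peaks in the windows, and 7.27% of the *Rpl10a* window. The other 3 libraries were at 0 for each of these.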

How the results depend on the processing

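Peak numbers per library, not reads, limit these values, and zero cover in the WT hindbrains of litters A and Z rests on 1563 peaks each. The count of members with null above WT was 22 in hindbrain and 20 over 6 litters. It was 9 and 9 with the gene body alone, 15 and 13 with 2 kb upstream only, 51 and 50 with 10 kb on both sides, and 13 and 12 with peaks of at least 600 bp, where in hindbrain 43.1%, 46.5%, 63.3% and 34.3% of all genes had that order. With litters pair_a and pair_b only it was 47, with 69.3% of all genes, and 1 member was lower. Relative to each library's cover of all windows it was 21 in hindbrain, none past the adjusted threshold. Leaving out replicates gave 22 to 27 in hindbrain, with 48.8% to 52.7% of all genes, and 20 to 25 over litters, with 48.7% to 51.3%. Merging, midpoints, autosomes, paralogs and the main transcript kept the counts within 1.5 times.

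The replicate block, as exact sign flips of 4 litters, left 22 members (28.9%, against 49.7% of all genes) with null above WT in every litter, and cannot pass a threshold (smallest p 0.125).

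The ratio of member cover to that of all windows was 0.858 in null hindbrain, 0.958 in null heart and 0.522 in null carcass. In that order it was 0.737, 1.001 and 0.410 with the gene body alone, 0.997, 1.13 and 0.643 with midpoints, 0.973, 1.02 and 0.733 against windows no longer than the longest member's, and 1.12, 1.48 and 0.686 against the ungapped genome. With 2 kb upstream only it was 0.878 in heart and 0.483 in carcass, with 10 kb on both sides 1.03 in hindbrain and 0.716 in carcass, and with peaks of at least 600 bp 0.753 in hindbrain and 0.912 in heart. Against the length band, added after seeing the data, it was 1.01 in heart and 0.688 in carcass. The cause of these shifts was not tested.

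Members minus all genes in null hindbrain was -4.14 percentage points in the first 500 bp, and -1.42 against island-like starts (added after seeing the data). It was 1.84 in the upstream kilobase and -1.14 in introns. Among members whose window touches no other annotated gene, still set against all genes with or without neighbours, it reversed to -3.66 and 0.338. Without the null heart of pair_a, the excess of heart over hindbrain in the members' windows was 1.76 points against 4.87, also added after seeing the data.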
